A study of Mus musculus with 8 samples.

Results

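The fibrillar collagen genes are the members of the collagen family whose protein chains assemble into the long banded fibrils of bone, cartilage, tendon and skin. Rows were taken by gene name for 10 of them, Col1a1, Col1a2, Col2a1, Col3a1, Col5a1, Col5a2, Col5a3, Col11a1, Col11a2 and Col27a1, and all 10 were found among the 20681 genes of the table. Their transcripts were measured by poly-A RNA sequencing in 8 knee joints of mice, of which 4 carry the label control and 4 the label knockout for Loxl2. Per the series description the mice were Acan-Cre;Loxl2 fl/fl, a genotype given for both groups. The library names, however, carry LOXL2wt for the controls and LOXL2ko for the other group. The controls are called vehicle-treated, while the names of the other group carry KO, and the labels name no agent given to it. All library names carry DMM, commonly short for surgery that loosens the medial meniscus to injure the joint. Cre follows Acan, the aggrecan gene of cartilage cells, whereas the RNA came from the whole joint, so tissues that do not express Cre are part of every library. Age, sex and time after surgery are not given in the sources used here.

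A fibrillar collagen chain is made as a procollagen with a long central stretch in which glycine recurs at every 3 residues, and such stretches of 3 chains wind into a triple helix. After secretion the end propeptides are cut off, the trimers pack into fibrils, and lysyl oxidases, of which LOXL2 is one, oxidise lysines so that neighbouring molecules become crosslinked. Type I collagen, from Col1a1 and Col1a2, is the main fibril of bone, tendon and meniscus, type III from Col3a1 accompanies it in stretchable connective tissue and healing wounds, and type V from the Col5 genes starts its fibrils. Type II from Col2a1 is the main fibril of hyaline cartilage, and type XI from Col11a1, Col11a2 and a chain of Col2a1 starts fibrils there. Type XXVII from Col27a1 and type XXIV from Col24a1 are thinner-spread fibrillar collagens of skeletal tissue.

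The repeat can be read in the genes themselves. One coding exon of 54 bases is shown from each of 6 members, to show the unit that the family shares. Each is the earliest exon of that length within the gene's longest unbroken repeat, read from GENCODE release M21 on GRCm38, the assembly that mm10 denotes. Capitals mark GGN codons, which encode glycine, at the repeat's positions. They are coding exon 8 of 51 of Col1a1 (chr11:94939904-94939957), 8 of 52 of Col1a2 (chr6:4515481-4515534), 6 of 51 of Col3a1 (chr1:45325360-45325413), 15 of 66 of Col5a1 (chr2:27965251-27965304), 15 of 67 of Col11a1 (chr3:114108281-114108334) and 7 of 61 of Col27a1 (chr4:63245069-63245122), all on the plus strand.
Col1a1: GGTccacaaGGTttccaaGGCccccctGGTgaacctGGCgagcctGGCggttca
Col1a2: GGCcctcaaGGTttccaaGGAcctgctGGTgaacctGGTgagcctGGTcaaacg
Col3a1: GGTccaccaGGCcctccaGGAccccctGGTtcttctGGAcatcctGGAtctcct
Col5a1: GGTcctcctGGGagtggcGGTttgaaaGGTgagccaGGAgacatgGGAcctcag
Col11a1: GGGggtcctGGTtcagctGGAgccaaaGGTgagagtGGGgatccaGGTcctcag
Col27a1: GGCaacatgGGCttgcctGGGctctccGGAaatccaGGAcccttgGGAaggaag
Each exon holds 18 codons, 6 of them at the glycine position. Of the 569 inner coding exons of the 10 genes, 272 (47.8%) were 54 bases long, against 0.544% of the 158303 inner coding exons of all other protein-coding genes. A length that is a multiple of 9 bases, the coding length of 1 Gly-X-Y unit, was found in 83.3% of the members' inner exons and in 14% of the others. The longest unbroken run of GGN codons in this spacing held 337 to 344 units in the 9 genes of types I, II, III, V and XI. Col27a1 was shorter, with 217 units, close to the 216 of Col24a1, which is not one of the 10.

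The libraries held 13991000 to 17411617 reads assigned to genes. Values below are normalised read counts, which are read counts divided by 1 size factor per library. Differences are log2(normalised count + 1) in libraries labelled knockout minus that in control libraries, with the standard error of the limma fit across all genes, and a gene is called at a Benjamini-Hochberg adjusted p under 0.05. Beside it stands an exact two-sided permutation test, for which 4 libraries against 4 cannot give a p below 0.0286. Nothing in the labels says that replicates came from separate animals, so p-values measure the spread between these libraries. The targeted gene Loxl2 was higher, not lower, in the libraries labelled knockout (282, 349, 1135 and 311 against 893, 1468, 960 and 1518), so the groups are named by their labels throughout. Its limma adjusted p was 0.0294 and its exact permutation p 0.0857, and 5 of the 8 fits without a library lost its limma call (highest adjusted p 0.0849). With edgeR and DESeq2 its adjusted p was 0.0669 and 0.0659. In bulk tissue, fewer cells of a type and less RNA per cell cannot be told apart. Markers of skeletal muscle held 16% to 16.6% of the summed counts in control libraries and 9.62% to 12.7% in libraries labelled knockout. The 11 cartilage cell markers in the table held only 0.0179% to 0.0449% and 0.0489% to 0.0907%, and one of them, Matn3, was at 0 in control replicate 3. Most of this was Comp, a matrix gene that is also in the fibril surface list, and the other 10 held 0.00204% to 0.00777% and 0.00508% to 0.00994%, ranges that overlap.

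Fibrillar collagen transcripts were more abundant in the libraries labelled knockout. All 10 genes passed the filter on low values, and 7 were called higher (Col1a1, Col1a2, Col3a1, Col5a1, Col5a2, Col11a1 and Col27a1) and 0 lower, where 11.6% of the 14949 genes tested were called higher. The median log2 difference was 1.68 over the 10 members and 0.00 over all genes tested. The groups did not overlap for 4 of the 10, Col1a1, Col5a1, Col11a1 and Col27a1, against 11.7% of all tested genes with separate groups in that direction. The 10 genes together took 0.766%, 0.251%, 0.682% and 0.205% of the summed counts in the controls (replicates 1 to 4), while those labelled knockout gave it 1.86%, 1.65%, 1.08% and 1.84% (same order). Either direction counted, 23.2% of tested genes were called. The members were chosen with earlier results of these data known, so their shares are a description. A log2 difference of at least 1 was reached by 8 of the 10 members and by 7.51% of tested genes. On recovered reads edgeR and DESeq2 each called 6 members higher, against 11.3% and 14.3% of tested genes. Leaving out control replicate 2, control replicate 4 or knockout replicate 1 brought the limma count of members to 4, and leaving out knockout replicate 4 brought it to 3. In these fits, in the same order, the genes called higher among all 14949 tested went from 1732 to 974, 1154, 1204 and 831.

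**Figure D1:**
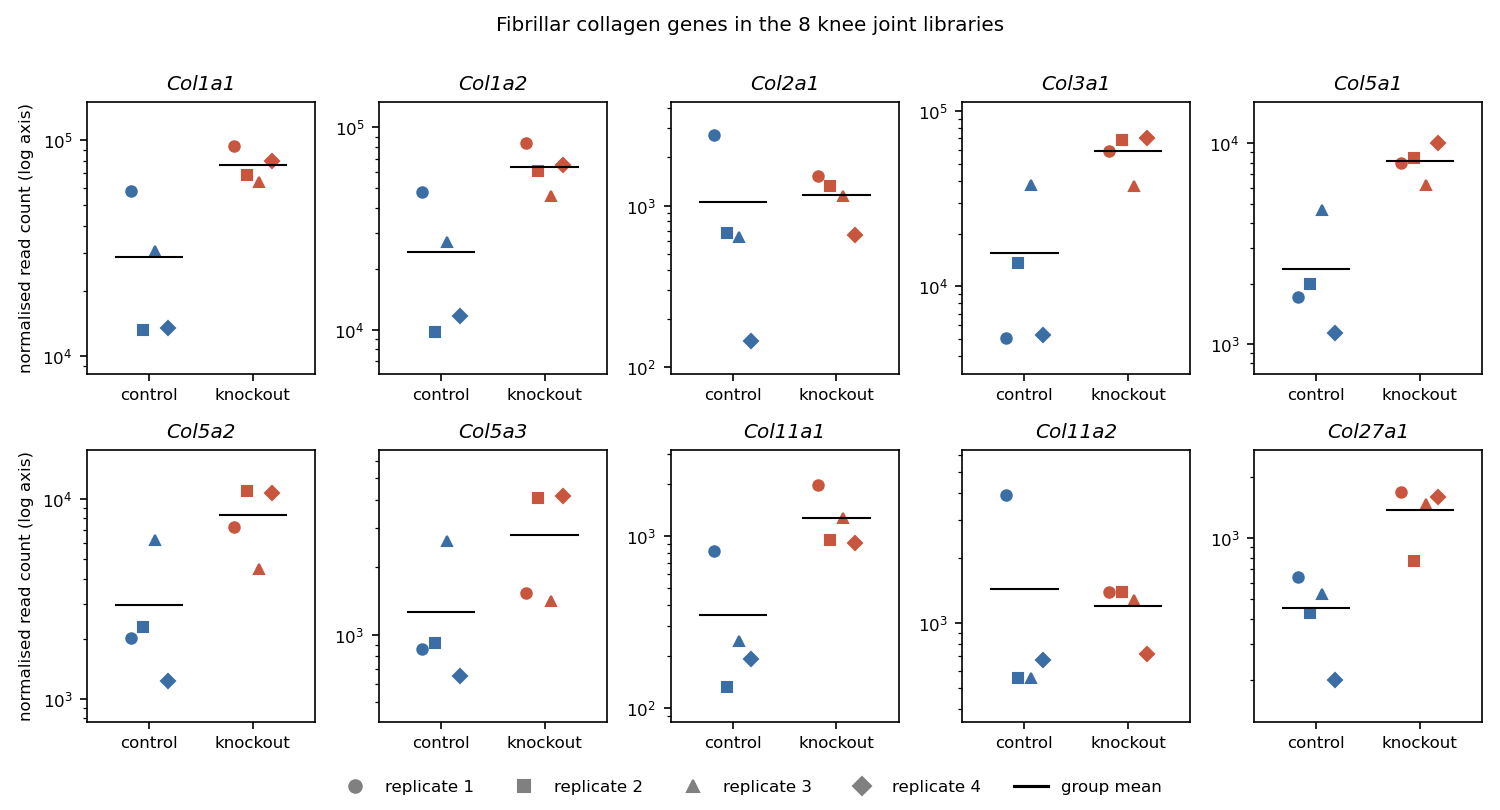
Normalised read count (log axis) of each of the 10 fibrillar collagen genes in control libraries and libraries labelled knockout, 1 point per library with its replicate number as its shape, and the arithmetic mean of each group as a bar. The groups are apart for Col1a1, Col5a1, Col11a1 and Col27a1, while control replicate 1 is the highest library for Col2a1 (2721) and Col11a2 (3923).

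Both chains of type I collagen rose. Col1a1 (chromosome 11, 94936224 to 94953042), which encodes the alpha 1 chain, had 58034, 13233, 30458 and 13411 normalised reads in the controls (replicates 1 to 4) and 93111, 68962, 63994 and 79975 in the libraries labelled knockout (same order). The lowest library labelled knockout lay above the highest control, and the controls themselves spread over 4.39-fold against 1.45-fold in the other group. The means were 28784 ± 21107 and 76510 ± 12926 (SD, n = 4 each), a log2 difference of 1.68 ± 0.43 (SE; limma adjusted p = 0.0214, exact permutation p = 0.0286). Col1a2 (chromosome 6, 4504814 to 4541544), the gene of the alpha 2 chain, had 47992, 9681, 27263 and 11662 in the controls and 83229, 60801, 45598 and 64916 in the libraries labelled knockout. Here control replicate 1 stood above knockout replicate 3, so the groups overlapped. Col1a2 differed by 1.67 ± 0.45 (SE; limma adjusted p = 0.0274, exact permutation p = 0.0571), and with edgeR its adjusted p was 0.0555. Leaving out any of 4 libraries ended the limma call of Col1a1: control replicate 2 gave an adjusted p of 0.0601, control replicate 4 0.0562, knockout replicate 1 0.0532 and knockout replicate 4 0.0583. That of Col1a2 was lost without those same libraries (limma adjusted p = 0.071, 0.073, 0.067 and 0.0699) and without knockout replicate 2 (0.0589).

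Col3a1 rose as well. This gene of the type III chain (chromosome 1, 45311538 to 45349706) had 5083, 13660, 37778 and 5257 normalised reads in the controls (replicates 1 to 4) and 59337, 68472, 37508 and 70228 in the libraries labelled knockout (same order). Control replicate 3 reached the level of knockout replicate 3, and the other controls were well below. The means were 15445 ± 15418 and 58886 ± 15031 (SD, n = 4 each), a log2 difference of 2.40 ± 0.57 (SE; limma adjusted p = 0.0167, exact permutation p = 0.0571). The limma call was lost only without knockout replicate 4 (adjusted p = 0.0508).

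Of the type V genes, Col5a1 and Col5a2 rose and Col5a3 did not pass the test. Col5a1 (chromosome 2, 27886425 to 28039514), whose alpha 1 chain is needed for type V trimers, had 1720, 1993, 4621 and 1137 in the controls and 7968, 8459, 6161 and 9995 in the libraries labelled knockout. All 4 libraries labelled knockout exceeded every control, with a log2 difference of 1.96 ± 0.35 (SE; limma adjusted p = 0.00724, exact permutation p = 0.0286). Col5a2 (chromosome 1, 45374321 to 45503282), the alpha 2 gene next to Col3a1, had 2006, 2281, 6266 and 1227 against 7274, 10968, 4449 and 10674. Its groups overlapped through control replicate 3 and knockout replicate 3, and the log2 difference was 1.69 ± 0.46 (SE; limma adjusted p = 0.0264, exact permutation p = 0.0571). Its adjusted p in DESeq2 was 0.0502, and limma no longer called Col5a2 on leaving out control replicate 1, 2 or 4 (0.0566, 0.0666 and 0.063) or knockout replicate 1, 2 or 4 (0.0524, 0.0695 and 0.0776). Col5a3 (chromosome 9, 20770050 to 20815067), which encodes the less widespread alpha 3 chain, had 863, 920, 2628 and 652 in the controls and 1532, 4093, 1417 and 4175 in the other group. Knockout replicates 2 and 4 were the high libraries, and replicates 1 and 3 lay under control replicate 3. Col5a3 was not called (log2 difference 1.19 ± 0.48, SE; limma adjusted p = 0.0991, exact permutation p = 0.143). Leaving out control replicate 3 brought it past the threshold (1.62, limma adjusted p = 0.021).

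Of the cartilage collagens, Col11a1 was called higher, and Col2a1 and Col11a2 were not called. Col2a1 (chromosome 15, 97975602 to 98004695), the type II gene, had 2721, 677, 635 and 146 normalised reads in the controls (replicates 1 to 4) and 1528, 1326, 1147 and 658 in the libraries labelled knockout (same order). The controls spread over 18.7-fold and enclosed the other group. Its means were 1045 ± 1143 and 1165 ± 372 (SD, n = 4 each), and it was not called (log2 difference 0.79 ± 0.70, SE; limma adjusted p = 0.441, exact permutation p = 0.486). Its log2 difference was 1.48 without control replicate 1 (limma adjusted p = 0.0716) and 0.08 without control replicate 4 (0.93). Col11a1 (chromosome 3, 114030540 to 114220718), the gene of the type XI alpha 1 chain, had 821, 133, 246 and 192 in the controls and 1967, 942, 1279 and 914 in the libraries labelled knockout. Its groups were separate, with means of 348 ± 319 and 1275 ± 490 (SD, n = 4 each) and a log2 difference of 2.17 ± 0.49 (SE; limma adjusted p = 0.0144, exact permutation p = 0.0286). Col11a2 (chromosome 17, 34039437 to 34066685), the gene of its alpha 2 partner, had 3923, 558, 558 and 676 in the controls and 1394, 1385, 1280 and 720 in the other group. Control replicate 1 exceeded every other library, so the arithmetic mean was lower in the libraries labelled knockout (1195 ± 321 against 1429 ± 1664) while the log2 difference was 0.28 ± 0.56 (SE; limma adjusted p = 0.753, exact permutation p = 0.829). Its sign turned in edgeR (-0.26) and DESeq2 (-0.25), and without control replicate 1 it was called higher (0.96, limma adjusted p = 0.0219). Among the cartilage cell markers, 10 of 11 were above 0, with a median log2 difference of 0.70 against 0.00 over all genes tested. Of these 11 markers 1 was called higher, a share near the 11.6% of all tested genes.

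Of the remaining fibrillar collagens, Col27a1 rose and Col24a1 did not pass the test. Col27a1 (chromosome 4, 63214004 to 63334991), the type XXVII gene with the short glycine repeat, had 645, 428, 527 and 199 in the controls and 1683, 773, 1471 and 1581 in the libraries labelled knockout. Knockout replicate 2 was the lowest of its group and still above every control (log2 difference 1.67 ± 0.36, SE; limma adjusted p = 0.0119, exact permutation p = 0.0286). Col24a1 had 261, 276, 287 and 211 against 427, 227, 223 and 303, with a log2 difference of 0.15 ± 0.21 (SE; limma adjusted p = 0.634, exact permutation p = 0.629). Its controls were the tightest of the 11 genes, within 1.36-fold. The calls of Col5a1, Col11a1 and Col27a1 held whichever of the 8 libraries was left out, with a highest adjusted p of 0.0259, 0.0406 and 0.0403.

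**Figure D2:**
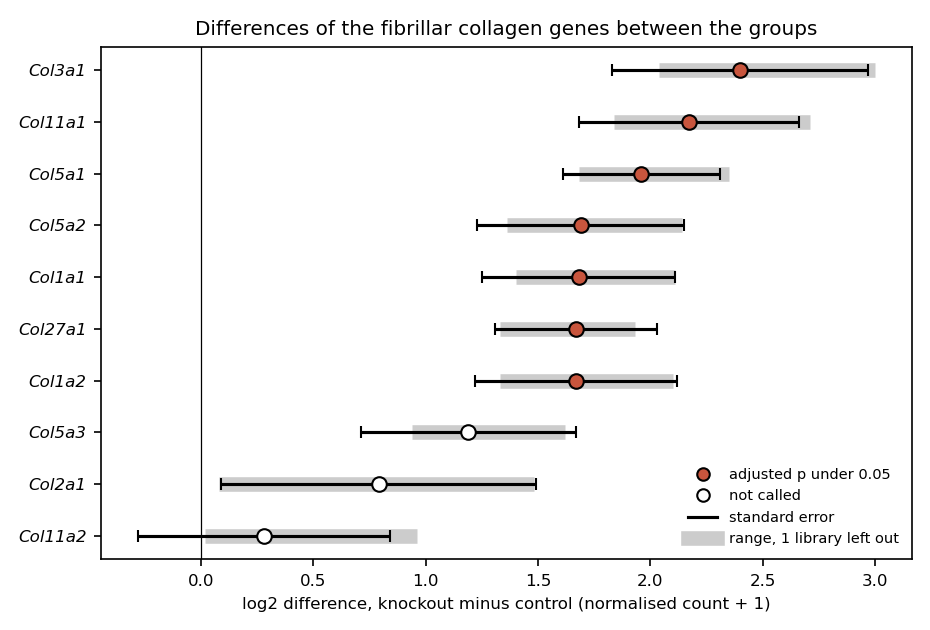
Log2 difference of each member between the groups (points), with its standard error (black line) and the range when each library in turn was left out (grey bar); filled points have a limma adjusted p under 0.05. Differences run from 0.28 (Col11a2) to 2.40 (Col3a1), and the ranges of Col3a1 (2.04 to 3.0) and Col11a1 (1.84 to 2.71) overlap.

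Ratios between members within a library do not depend on how libraries were scaled, and 8 were tested by exact two-sided permutation. The ratio of Col1a1 to Col1a2 was narrow in both groups, 1.12 to 1.37 in the controls and 1.12 to 1.4 in the libraries labelled knockout (log2 difference 0.01, exact permutation p = 0.829). Type I collagen usually combines a pair of alpha 1 chains with a single alpha 2 chain, but these ratios of read counts are not per length and do not measure protein chains. The ratio of Col11a1 to Col11a2, partner chains of type XI, was 0.209, 0.239, 0.441 and 0.284 in the controls (replicates 1 to 4) and 1.41, 0.68, 0.999 and 1.27 in the libraries labelled knockout (same order). Every library labelled knockout exceeded every control. The difference was 1.90 on the log2 scale, with the smallest exact permutation p that this design allows, 0.0286, and a Benjamini-Hochberg adjusted p of 0.229 over the 8 ratios. It lay between 1.76 and 2.12 in the 8 comparisons that left out a library. None of the other ratios had separate groups, and the smallest of the other exact permutation p-values was 0.114, for Col11a1 to Col2a1 (log2 difference 1.39).

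Ratios to Col1a1 varied widely among the controls. Col3a1 to Col1a1 was 0.0876 in control replicate 1, 1.03 in replicate 2, 1.24 in replicate 3 and 0.392 in replicate 4, against 0.586 to 0.993 in the libraries labelled knockout. Control replicate 1 thus had the fewest Col3a1 reads per Col1a1 read, and control replicates 2 and 3 had more reads of Col3a1 than of Col1a1. Col2a1 to Col1a1 was 0.0109 to 0.0512 in the controls and 0.00823 to 0.0192 in the other group (log2 difference -0.89, exact permutation p = 0.2). Col5a1 to Col5a2 was 0.737 to 0.927 and 0.771 to 1.38 (log2 difference 0.27, exact permutation p = 0.2). After adjustment over the 8 ratios the p-values ranged from 0.229 to 1.

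**Figure D3:**
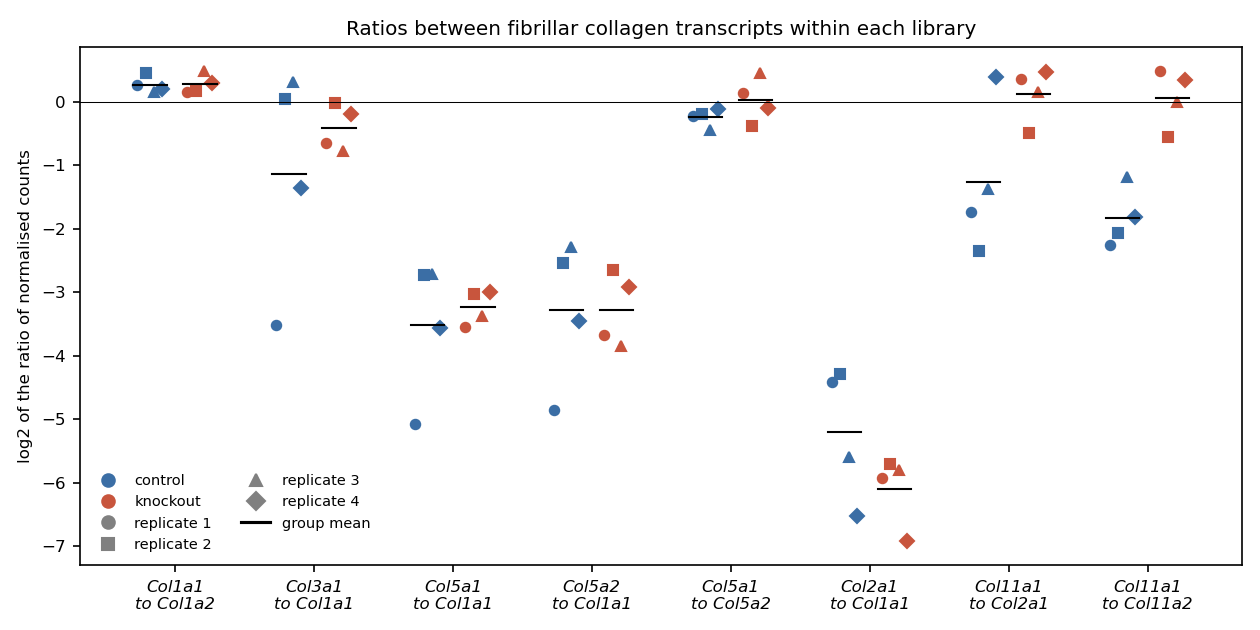
Log2 ratio of normalised counts for 8 pairs of members within each library, with control libraries and libraries labelled knockout side by side, replicate numbers as shapes and group means as bars. Col11a1 to Col11a2 has separate groups (0.209 to 0.441 against 0.68 to 1.41 as plain ratios), and control replicate 1 lies far below the other libraries in Col3a1, Col5a1 and Col5a2 to Col1a1.

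Levels of different genes were compared per kilobase of annotated exons. Col1a1 was highest in both groups, with 4386 ± 3216 normalised reads per kilobase in the controls and 11658 ± 1969 in the libraries labelled knockout (SD, n = 4 each). Col1a2 followed in the controls (1943 ± 1427) and Col3a1 in the other group (5999 ± 1531), and neither order was clear of the spread, since Col3a1 stood at 1573 ± 1571 in the controls and Col1a2 at 5121 ± 1246 in the other group. Col5a1 and Col5a2 came next in the libraries labelled knockout (959 ± 186 and 870 ± 322), followed by Col5a3 (412 ± 226) and Col11a2 (174 ± 46.7). Col2a1 (126 ± 40.2), Col27a1 (106 ± 31.6) and Col11a1 (100 ± 38.4) lay within their spread of each other. In the controls Col11a1 (27.3 ± 25.0) and Col27a1 (34.5 ± 14.5) were the lowest. As a share of the per-kilobase sum over the 10 members, Col2a1 was 1.1 ± 0.762% in the controls and 0.506 ± 0.172% in the libraries labelled knockout, and Col11a2 was 2.15 ± 1.36% and 0.706 ± 0.249%. The share of Col3a1 was 3.51% to 30.8% in the controls and 19.9% to 27.3% in the other group. With the length of the longest transcript in place of all exons, Col1a2 came to 4516 ± 3316 per kilobase in the controls, close to Col1a1 at 4854 ± 3559, because its annotated exons add up to 12426 bases and its longest transcript to 5348. That length also turned some orders in the libraries labelled knockout, each within the spread. Col1a2 (11899 ± 2895) came above Col3a1 (10583 ± 2701) there. Col5a2 (1259 ± 466) came above Col5a1 (969 ± 188), and Col2a1 (228 ± 72.8) above Col11a2 (198 ± 53).

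Within the groups some members varied together, in part through control replicate 1. Pearson r was taken between deviations of the log2 values from the group mean over all 8 libraries, as a description, and all genes share the same libraries and their depth. Col1a1 and Col1a2 had an r of 0.99, and both varied with Col11a1 (0.88 and 0.86). Col3a1, Col5a1, Col5a2 and Col5a3 varied with each other, with r from 0.79 (Col3a1 with Col5a3) to 0.96 (Col5a1 with Col5a2). Between Col1a1, Col1a2, Col11a1 or Col11a2 and these genes r ran from -0.58 (Col3a1 with Col11a2) to 0.37 (Col1a2 with Col5a2), and it was -0.01 for Col1a1 with Col3a1. Without control replicate 1, however, the r of Col1a1 was 0.82 with Col3a1, 0.86 with Col5a1 and 0.78 with Col5a2, and that of Col1a2 was 0.75, 0.79 and 0.76, so these low values of the type I genes rested on that library. Between Col11a1 or Col11a2 and Col3a1 or the Col5 genes, r was at most 0.16 whichever library was left out. The r of Col1a1 with Col3a1 became -0.37 when control replicate 3 was the one removed. The r of Col3a1 with Col5a1 stayed between 0.77 and 0.99, and that of Col1a1 with Col1a2 between 0.98 and 0.99, whichever library was left out. Removing control replicate 1 also took Col1a1 with Col11a1 to 0.61, Col11a1 with Col11a2 from 0.89 to 0.44, and Col11a2 with Col1a1 and Col1a2 from 0.74 and 0.70 to -0.17 and -0.09.

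The members also varied with marker lists, several of them at a time. Col1a1, Col1a2 and Col11a1 had an r of 0.94, 0.94 and 0.97 with the mean of 9 markers of bone-forming cells, and at least 0.81, 0.86 and 0.88 with any library left out. Their r with osteoclast markers was 0.81, 0.77 and 0.89 and with fat cell markers 0.75, 0.81 and 0.72, all lowest without control replicate 1 (0.41, 0.37 and 0.60, then 0.40, 0.57 and 0.27). Col11a2 had 0.85 with bone-forming cell markers, but 0.32 without control replicate 1, and 0.87 with neutrophil markers, at least 0.85 with any library left out. Col5a3 and Col5a2 had an r of 0.97 and 0.92 with the mean of 11 fibroblast markers, and Col5a1 and Col3a1 had 0.83 and 0.77. Without control replicate 3 the lowest of these, for Col3a1, was 0.42. With the mean of 5 tendon cell markers, Col5a3, Col5a2, Col5a1 and Col3a1 had an r of 0.91, 0.89, 0.79 and 0.66. It was at least 0.86, 0.84, 0.66 and 0.35 with any library left out. Col2a1 had 0.47 with 11 cartilage cell markers and 0.69 with bone-forming cell markers, which fell to 0.11 and 0.13 without control replicate 1. Col11a1 and Col11a2 had 0.34 and 0.44 with the cartilage cell markers, which became -0.25 and -0.18 without that library. With the skeletal muscle markers the members' r lay between -0.49 (Col5a3) and 0.24 (Col2a1).

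**Figure D4:**
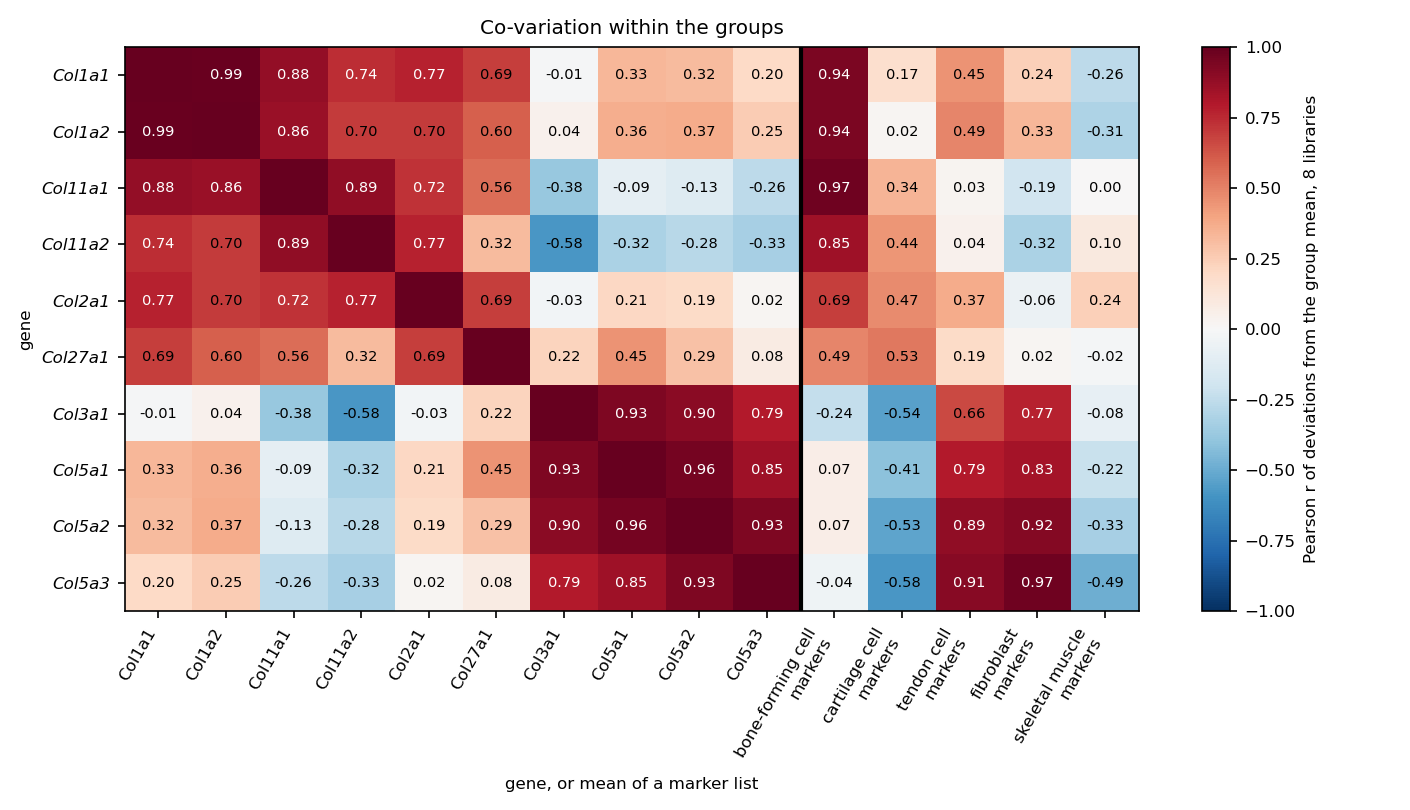
Pearson r between deviations from the group mean of log2 values over 8 libraries, among the 10 members (left of the black line) and between members and the mean of 5 marker lists (right of it). Col1a1, Col1a2, Col11a1 and Col11a2 have an r of 0.85 to 0.97 with bone-forming cell markers, which for Col11a2 is 0.32 without control replicate 1. Col3a1 and the Col5 genes have 0.77 to 0.97 with fibroblast markers and 0.66 to 0.91 with tendon cell markers.

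Between the groups the summed tendon cell markers were apart, and those of bone-forming cells and fibroblasts overlapped at the edge of their ranges. Bone-forming cell markers held 0.00652% to 0.0472% of the summed counts in the controls and 0.0463% to 0.0931% in the libraries labelled knockout, with 9 of 9 above 0 and 4 called higher. Fibroblast markers held 0.132% to 0.338% and 0.314% to 0.685%, with 10 of 11 above 0 and 5 called higher, and tendon cell markers 0.0218% to 0.0517% and 0.0655% to 0.137%, with 5 of 5 above 0 and 4 called higher. The tendon sum was mostly Fmod, also in the fibril surface list, and Thbs4, with control means of 2707 and 2450. Scx, Tnmd and Mkx had 214, 74.6 and 29.2. These tendon genes are named after their values were seen, and no sum without Fmod and Thbs4 was taken. For all tested genes 11.6% were called in each direction. Of the 18 skeletal muscle markers, 18 were below 0 and 9 were called lower. Of the other lists, 9 of 10 macrophage and 7 of 8 osteoclast markers were called higher. The summed macrophage markers were also apart (0.0199% to 0.046% in the controls and 0.0719% to 0.118% in the libraries labelled knockout). So was the sum of the 11 cartilage cell markers (0.0179% to 0.0449% and 0.0489% to 0.0907%), though not without Comp. The endothelial cell, fat cell, erythroid cell and neutrophil lists had 0 called, and Schwann cell markers 1 of 5 higher. With the mean of the skeletal muscle markers as a covariate limma called 0 members and 0 of all genes, and the standard errors of the 7 members called without it were 0.97 to 1.58. The part of these tissues in the collagen differences was not tested.

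Single genes most like Col1a1 within the groups were Pth1r, the parathyroid hormone receptor of bone cells (r = 0.986), Slc25a10, a mitochondrial dicarboxylate carrier (0.981), and Kcnk2, a potassium channel gene (0.981). For Col2a1 they were Ncam1, a neural cell adhesion molecule (0.971), Ica1 (0.965) and Slc35g1 (0.964). These are the highest of 11620 genes with a mean of at least 50, over 8 libraries.

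Genes that act on fibrillar collagen were counted in 7 lists, against 11.6% of all tested genes called higher and 11.6% called lower. The lists were chosen with earlier results of these data known, so the shares are a description. Of 7 tested genes for procollagen processing, 5 were called higher and 0 lower (median log2 difference 1.32). Adamts2 and Adamts14, which cut off N-propeptides, rose by 1.65 ± 0.25 and 1.37 ± 0.32 (SE; limma adjusted p = 0.00456 and 0.0156), and Pcolce, an enhancer of C-propeptide removal, by 1.32 ± 0.26 (limma adjusted p = 0.00977). Of 19 genes for chain modification and folding, 13 were called higher and 1 lower (median 0.74). Serpinh1, the collagen chaperone HSP47, rose from 2476 ± 899 to 6056 ± 949, a log2 difference of 1.34 ± 0.22 (SE; limma adjusted p = 0.00556). P4ha3, a prolyl 4-hydroxylase subunit, rose by 2.25 ± 0.37 (limma adjusted p = 0.00554) and Ppib, a prolyl isomerase of the same pathway, by 0.95 ± 0.14 (limma adjusted p = 0.00456). The 1 called lower was Tmem38b, a channel gene of the endoplasmic reticulum (-0.50, limma adjusted p = 0.016), named after its value was seen. The genes of the other alpha subunits, P4ha1 and P4ha2, also named after their values were seen, were not called, at 0.06 and 0.14.

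On the fibril itself, 4 of 6 crosslinking genes were called higher, among them the targeted Loxl2, which edgeR and DESeq2 did not call (median 1.15). Lox, the main lysyl oxidase, rose by 2.03 ± 0.35 (SE; limma adjusted p = 0.00631), Loxl1 by 1.26 ± 0.28 (0.0131) and Loxl3 by 1.03 ± 0.26 (0.0197). Of 20 genes of the fibril surface and assembly, 10 were called higher and 0 lower (median 1.19). Col16a1, a collagen that associates with fibrils, rose from 668 ± 393 to 4945 ± 1192 (SD, n = 4 each), a log2 difference of 3.01 ± 0.32 (SE; adjusted p = 0.00397 in limma). Periostin, encoded by Postn, rose by 3.42 ± 0.40 and Thbs2, the gene of a matrix thrombospondin, by 2.94 ± 0.35 (SE; limma adjusted p = 0.00397 for each). The type IX chains, which sit on cartilage fibrils, were named after their values were seen and were not called, with Col9a1 at -0.12, Col9a2 at 0.70 and Col9a3 at 0.56.

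Of 10 genes on the collagen breakdown list, which includes metalloproteinase inhibitors, 8 were called higher and 0 lower (median 1.93, and 0.71 with the muscle covariate). Of these 8, Timp1 and Timp2 (log2 differences 2.52 and 1.12) encode inhibitors, as does Timp3, which was not called (-0.04). These inhibitor genes are named after their values were seen. Mmp13, a collagenase, rose from 1220 ± 975 to 7645 ± 4004, a log2 difference of 2.93 ± 0.59 (SE; limma adjusted p = 0.00993). Mmp14, a membrane-bound collagenase, rose by 2.28 ± 0.36 (limma adjusted p = 0.00511) and Ctsk, the cathepsin with which osteoclasts digest bone collagen, by 2.53 ± 0.53 (0.0114). Of 8 collagen receptors, 3 were called higher (median 0.80), led by the integrin gene Itga11 at 1.71 ± 0.24 (SE; limma adjusted p = 0.00422). Lair1, an inhibitory receptor of immune cells, rose by 1.58 ± 0.34 (0.0119) and Ddr2, a receptor kinase for fibrillar collagen, by 1.06 ± 0.26 (0.02). Of 13 regulators of collagen transcription, 6 were called higher and 1 lower (median 0.69). Of these 6, Runx2 and Sp7 are also in the bone-forming and Mkx in the tendon cell marker list, and all 3 are named here after their values were seen. The 1 lower was Sox6, a partner of Sox9 in cartilage that is also made in muscle (-0.67 ± 0.11, SE; limma adjusted p = 0.00561), and Tgfb3 and Tgfb1, growth factors that raise collagen synthesis, rose by 0.37 ± 0.08 and 0.99 ± 0.24 (0.0148 and 0.0184). Sox9, the activator of Col2a1, named after its value was seen, was not called at 0.32 ± 0.24 (SE; limma adjusted p = 0.353).

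Some of these counts and calls rested on single libraries, while the calls over all genes changed as well. Of all 14949 tested genes, 1732 were called higher with every library. Without control replicate 1, 2 or 4 it was 1554, 974 and 1154. Without knockout replicate 1, 2, 3 or 4 it was 1204, 1147, 1840 and 831. Processing genes called higher numbered 3 without control replicate 2 or 4 or knockout replicate 2, and 2 without knockout replicate 4, and crosslinking genes 2 without control replicate 2 or knockout replicate 2 or 4. Receptors called higher numbered 5 without control replicate 1 or knockout replicate 3, and 2 without knockout replicate 2 or 4. Regulators called higher numbered 2 without control replicate 2 or 4, 3 without knockout replicate 1 and 1 without knockout replicate 4. Loxl3 lost its limma call on leaving out 1 control, replicate 2 (adjusted p = 0.0531), or 1 library labelled knockout, replicate 2 (0.0506) or 4 (0.0601). Adamts14 lost its limma call without knockout replicate 4 (adjusted p = 0.0512). Ddr2 lost it without knockout replicate 2 (limma adjusted p = 0.0532) or 4 (0.062), and Tgfb1 without control replicate 2 (0.0544), control replicate 4 (0.0507) or knockout replicate 4 (0.0513).

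**Figure D5:**
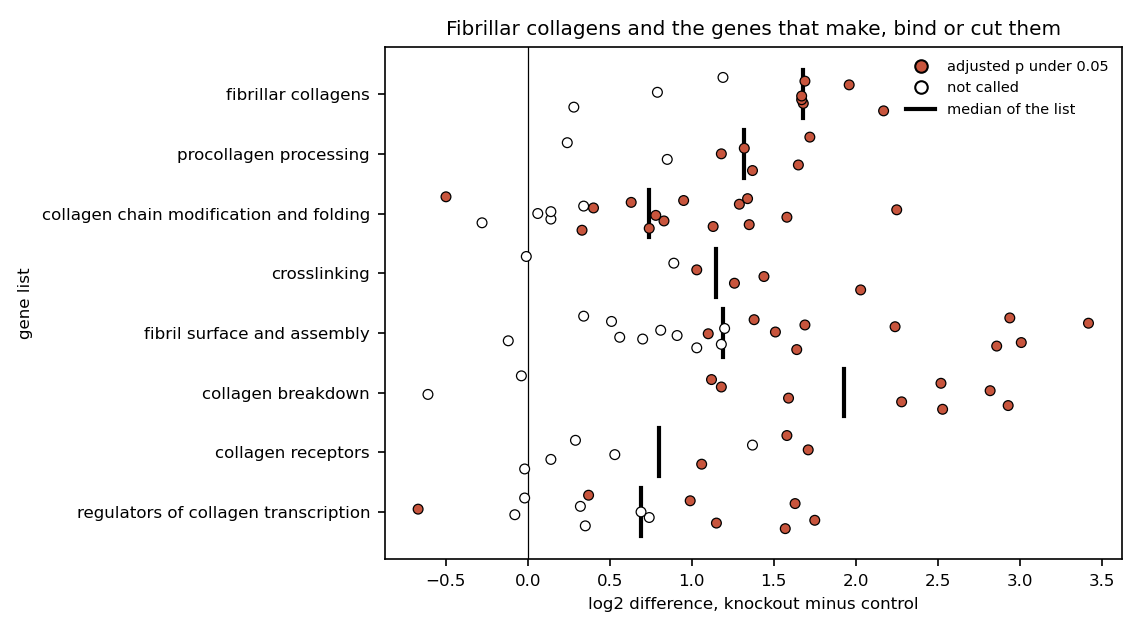
Log2 difference of each tested gene (points, filled where the limma adjusted p is under 0.05) in the fibrillar collagens and in 7 lists of genes that act on them, with the median of each list as a bar. The medians run from 0.69 for regulators of transcription to 1.93 for collagen breakdown, with 1.68 for the 10 fibrillar collagens.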

How the data were processed

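The deposited values are a normalised signal, 1 number per gene and library, made by the authors from gene counts divided by a size factor. Per the series description reads were aligned to mm10, counted with featureCounts and normalised and filtered with DESeq2, and the submitters' processing notes also name HISAT2. Versions, annotation and the use of strand are not given in the sources used here. In each of the 8 libraries 100% of values were whole multiples (tolerance 0.01) of 1 step, the value of a single read, and the whole reads so recovered were used for edgeR 4.0.16 and DESeq2 1.42.0 as alternatives. In control replicate 2 and knockout replicate 1 the size factors were 0.991 and 1, so the step was close to 1 there.

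The tested genes reached 10 in 4 or more libraries. They were fitted with limma 3.58.1 (lmFit, eBayes with trend) on log2(value + 1), with group as the only term. Exact permutation tests used all 70 assignments. Alternatives were other pseudocounts, filters and scalings, the count models, a replicate block, a muscle covariate and leaving out each library. Those on the companion lists, and the cartilage marker sum without Comp, were added after seeing the data. On simulated counts limma called 165 of 14729 genes, 10 falsely, and found 65.7% of genes changed by a log2 of 1. There edgeR called 170 genes, 14 falsely, and DESeq2 206, 32 falsely. Only 194 genes were changed in the simulation, whereas limma called 3461 in the data, so it did not match the data in this. Within groups, the chi-square of library pairs divided by its degrees of freedom was 23.5 to 59.7, so no pair looked like 1 library deposited in duplicate.

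The members and lists were chosen with earlier results of these data known. Genes named are all members, Col24a1, Loxl2, up to 3 called genes of smallest p per companion list, and the 3 genes most like Col1a1 and Col2a1, beside those said to be named after their values were seen. Names were matched to GENCODE release M21 (99.2%). Ccn2, listed in the table as Ctgf, was not counted. Genes held by both a companion and a marker list are Postn, Lum and Dcn (fibroblast), Fmod, Mkx and Scx (tendon), Comp, Sox9 and the Col9 genes (cartilage), Runx2 and Sp7 (bone), and Ctsk and Mmp9 (osteoclast). Annotated genes overlap Col1a2, Col3a1, Col5a1, Col5a2, Col5a3 and Col27a1, and those with a row reached at most 27.3 normalised reads. Collagen chains share related coding sequence, and how reads matching several genes were counted is not given in the sources used here.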

Additional observations from a re-analysis of the deposited data

Results flagged for a closer look

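Of 40 groups of 4 libraries examined (10 members, Col24a1, Loxl2 and 8 ratios, in each group), 6 had 1 library far from the other 3. For normally distributed values chance gives about 1 in 20. The rule was applied to untransformed counts and plain ratios, and the 40 share libraries and genes, so the 6 cannot be read as an excess over chance. Control replicate 1 was the high library for Col11a2 (3923, against at most 676 in the other controls) and for Col11a1 (821, against at most 246). Control replicate 3 was the high library for Col5a3 (2628, against at most 920) and for Loxl2 (1135, against at most 349). Knockout replicate 4 was low for Col11a2 (720, against at least 1280). Among the controls, replicate 4 had the highest ratio of Col11a1 to Col2a1 (1.32, against at most 0.387) and the lowest Col2a1 count, 146.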

How the results depend on the processing

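Leaving out a library left the direction of all 10 members above 0, and their log2 differences ranged from 1.40 to 2.11 for Col1a1, 1.33 to 2.10 for Col1a2, 0.08 to 1.48 for Col2a1, 2.04 to 3.0 for Col3a1, 1.68 to 2.35 for Col5a1, 1.36 to 2.14 for Col5a2, 0.94 to 1.62 for Col5a3, 1.84 to 2.71 for Col11a1, 0.02 to 0.96 for Col11a2 and 1.33 to 1.93 for Col27a1, while Col24a1 ranged from -0.05 (without knockout replicate 1) to 0.26. The members called ranged from 3 to 8 and all genes called from 1751 to 3841. Genes called higher ranged from 2 to 5 for processing, 2 to 4 for crosslinking, 2 to 5 for receptors and 1 to 6 for regulators. Ratio differences ranged from -0.07 to 1.20 for Col3a1, -0.23 to 0.55 for Col5a1 and -0.51 to 0.34 for Col5a2, each to Col1a1, and -0.06 to 0.07 for Col1a1 to Col1a2, so their signs depended on the library left out. With count models, Col1a2 was 1.40 (edgeR adjusted p = 0.0555), Col5a2 1.51 (DESeq2 adjusted p = 0.0502), Loxl2 1.23 in both (edgeR adjusted p = 0.0669, DESeq2 0.0659) and Col11a2 -0.26 (edgeR) and -0.25 (DESeq2). The mean of the skeletal muscle markers as a covariate called 0 genes (limma; 561 had an unadjusted p under 0.05), 0 members and 0 genes of each companion list, and 85.8% of its variance lay between the groups. Under it the log2 differences were 0.85 for Col1a1, 0.60 for Col1a2, 2.07 for Col3a1, 1.37 for Col5a1, 0.55 for Col5a2, -0.64 for Col5a3, 2.16 for Col11a1, 1.62 for Col27a1 and -0.01 for Col24a1, while those of Col2a1 and Col11a2 went from 0.79 to 2.08 and from 0.28 to 0.69. For Ddr2, Tgfb3 and Tgfb1 they were -0.39, -0.01 and -0.37. Scaling without muscle, erythroid and neutrophil markers and the 50 highest genes moved the median of all genes to 0.15 and the share of calls that were higher from 50% to 77.5%, with 7 members called and a median of 1.82 over them. By longest transcript the share of the per-kilobase sum was 34.8% and 33.5% for Col1a1 and 32% and 30.5% for Col1a2 (control, then labelled knockout), and in libraries labelled knockout 27.1% for Col3a1 and 2.51% for Col5a1. Same-numbered libraries are not stated to share a litter or day. Their deviations correlated at 0.21, -0.12, -0.23 and -0.06, and those of differently numbered libraries at -0.16 to 0.27. These values cannot decide whether the numbers pair the libraries. The replicate block called 2018 genes, 6 members and 2 processing genes. It gave 1.69 for Col5a2 and 1.44 for Loxl2 (limma adjusted p = 0.0669 and 0.0513). With the block the standard error went from 0.49 to 0.23 for Col11a1 and from 0.70 to 0.41 for Col2a1. For Col5a2 it went from 0.46 to 0.51. In the 8 ratios the block could not give a p under 0.125. The cause of these changes was not tested. Depth did not limit the members, of which the lowest had 132 reads in a library.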

Other observations

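The genes that varied most like the other members within the groups, named after their values were seen and given as a description over 8 libraries, included several matrix genes for types III and V. For Col3a1 they were P4ha3 (r = 0.992), Col6a1 (0.976) and Timp1 (0.975), a gene of collagen hydroxylation, a microfibrillar collagen chain and a metalloproteinase inhibitor. For Col5a1 they were Col6a3 (0.990) and Fmod, the fibromodulin gene of the fibril surface (0.987), for Col5a2 Wisp2 (0.982) and Mmp2 (0.980), and for Col5a3 the biglycan gene Bgn (0.988). For the remaining members they included Mme for Col1a2 (0.991) and B2m for Col11a1 (0.986). For Col27a1 they were the amino acid transporter gene Slc3a2 (0.992), Btbd9 (0.977) and Ctsa (0.962).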
